A study of Mus musculus with 6 samples.

Results

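The 5 genes described here are Lars2, the mitochondrial ribosomal RNA genes mt-Rnr1 and mt-Rnr2, and the nuclear noncoding RNA genes Malat1 and Neat1, taken by symbol from the 37991 mouse genes of the deposited count tables. They were picked because of their levels in null against wild-type tumours, so their difference between these groups is a description and carries no test. The tumours come from cutaneous squamous cell carcinoma (cSCC) of the mouse. Null tumours have the genotype Kindlin-1 Null (3 libraries) and wild-type tumours the genotype Kindlin-1 WT (3 libraries). No treatment, time, age or sex is given, and no other allele is named. The labels call cSCC a cell line but do not say whether the null cells are 1 clone, which mice carried the tumours or at which site they grew. Tumour RNA holds RNA of the carcinoma cells and of host cells, and in such bulk samples fewer cells of a type and less RNA per cell cannot be told apart. The comparison asks how expression differs between tumours with and without Kindlin-1, an adaptor of integrins encoded by Fermt1.

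Lars2 encodes the enzyme that loads leucine onto its transfer RNA inside mitochondria. The genes mt-Rnr1 and mt-Rnr2 lie side by side on the mitochondrial chromosome and encode the small-subunit and large-subunit ribosomal RNA of the mitochondrial ribosome, which translates the mitochondrially encoded mRNAs of the respiratory chain. Malat1 is an abundant long noncoding RNA of nuclear speckles, the stores of splicing factors, and Neat1 is the RNA scaffold of paraspeckles. Both of these nuclear RNAs stay in the nucleus, and the long form of Neat1 and Malat1 end without a conventional poly(A) tail, in a genomically encoded triple helix.

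Between 1138318 and 31487255 reads were assigned to genes in the null libraries, and between 161711 and 15529242 in the wild-type libraries. Reads in no annotated feature made up 5.84%, 5.55% and 4.63% of all listed reads in null libraries 1 to 3 and 7.15%, 8.75% and 12.0% in wild-type libraries 1 to 3. Reads with several alignments made up 34.9%, 34.0% and 32.9% in the null libraries and 34.1%, 35.9% and 40.0% in the wild-type libraries. The no-feature share was thus lower in each null library than in each wild-type library, and wild-type library 3 had the highest value of both shares. Fermt1 had 0, 2 and 2 reads in null libraries 1 to 3 and 16, 2 and 1040 reads in wild-type libraries 1 to 3. Wild-type libraries 1 and 2 carry one mouse number and null libraries 2 and 3 another, although the file of null library 3 is named with a different number. Whether libraries are separate animals is not stated, so every p-value reflects the scatter of these libraries alone, which may be technical. Of the squamous markers that define the labelled tumour type, Krt5 had at most 5 reads in any library and was at 0 in null library 1 and wild-type library 2. Krt14 stood at 10.1, 10.6 and 5.12 CPM in null libraries 1 to 3 and at 45.3, 36.9 and 26.3 CPM in wild-type libraries 1 to 3. Other squamous or epithelial markers went both ways without passing the test. Log2 fold changes were 0.53 for Trp63, 0.76 for Cdh1 and 0.40 (SE 2.34) for Krt8, against -1.01 for Krt18 and -1.36 for Sfn. Of the 7 tested, 3 were lower and 0 higher at an unadjusted p under 0.05 in edgeR. Of all 11887 genes tested, 2978 had an unadjusted p under 0.05, in either direction. The median of the list was 0.03, the value of Krt17 (SE 1.77).

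The sequence of Lars2 is shown because a piece of it is shared with other genes. The main Lars2 transcript is 3894 bases long, and its 3′ UTR, 986 bases long, starts at base 2909. Within that UTR, bases 3163 to 3349 form a stretch of 187 bases that shared words of 25 bases with 2 other genes of the annotation, Gm15564 and AA474408. As background, this stretch carries letters of the large-subunit rRNA of the cytosolic ribosome, whose own sequence was not among those compared. A window of 30 bases from the stretch follows for the 3 genes, 5′ to 3′, from GENCODE M21 transcripts on GRCm38 (Lars2 at chr9:123462063-123462092, plus strand; Gm15564 at chr16:35981752-35981781, minus strand; AA474408 at chr7:110059694-110059723, minus strand). Capitals mark letters identical in all 3.
Lars2: TGGATTGTTCACCCACTAATAgGGAACGTG
Gm15564: TGGATTGTTCACCCACTAATAgGGAACGTG
AA474408: TGGATTGTTCACCCACTAATAaGGAACGTG

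Over the longer local alignment, Lars2 and Gm15564 had 71 of 72 aligned bases identical, with a longest identical run of 52 bases. Lars2 and AA474408 had 158 of 162 aligned bases identical, with 34 further bases in gaps and a longest run of 41 bases. The same stretch of Lars2 also holds short likenesses to both mitochondrial rRNAs. How often likenesses this short arise by chance was not measured. That to mt-Rnr1 had 11 of 11 bases identical. That to mt-Rnr2 was longer, with 17 of 19 bases identical. That pair is shown because both genes are described here (Lars2 at chr9:123461950-123461968, plus strand; mt-Rnr2 at chrM:2362-2380, plus strand), and capitals mark the identical letters.
Lars2: AAGTTACCacAGGGATAAC
mt-Rnr2: AAGTTACCctAGGGATAAC

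Malat1 and Neat1 are shown at the triple-helix element near their 3′ ends, the feature that sets them apart from polyadenylated RNAs. Capitals mark the runs of at least 11 letters that these ends share, in order the motifs TTTCTTTTCCTGA, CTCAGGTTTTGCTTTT and AAAAAGCAAAA, which are U-rich, U-rich and A-rich in the RNA (Malat1 at chr19:5795982-5796065, minus strand; Neat1 at chr19:5824708-5824797, minus strand; GRCm38, GENCODE M21).
Malat1: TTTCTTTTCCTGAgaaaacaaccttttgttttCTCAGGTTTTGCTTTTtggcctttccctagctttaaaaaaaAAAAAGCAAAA
Neat1: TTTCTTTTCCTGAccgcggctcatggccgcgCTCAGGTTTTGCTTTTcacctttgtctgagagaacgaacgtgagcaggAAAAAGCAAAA

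The element spans 84 bases in Malat1 and 90 bases in Neat1. In the annotated transcripts it ends 292 bases before the last base of Malat1, and at the last base of Neat1. Among 55450 annotated genes, the first motif was found in transcripts of 0.0379%, the second in 0.00361% and the third in 0.678%. On the other strand the shares were 0.0469%, 0% and 0.768%. The motifs do not overlap in these elements, and all of them within 120 bases were found in transcripts of 2 genes, Malat1 and Neat1. As the motifs were taken from these 2 genes, that both are found was fixed in advance, and the same-strand shares include both.

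Lars2 was the gene of the 5 with the largest difference, and it was lower in null tumours. Counts were 1427, 52337 and 2179 reads in null libraries 1 to 3, against 6073, 1292 and 287695 reads in wild-type libraries 1 to 3. As a share of gene-assigned reads this came to 0.125%, 0.166% and 0.0417% in the null libraries and to 0.473%, 0.799% and 1.85% in the wild-type libraries. The groups did not overlap, with null library 3 lowest and wild-type library 3 highest. Lars2 ranked 72nd, 45th and 307th among all genes by reads in null libraries 1 to 3, and 8th, 1st and 1st in wild-type libraries 1 to 3. In the shallowest library, wild-type library 2, the exact (Clopper-Pearson) 95% interval of its share was 0.756% to 0.844%, which like all intervals and floors here covers counting error only. The mean share was 0.111% ± 0.0635 in null tumours and 1.04% ± 0.721 in wild-type tumours (SD, n = 3 each). The fitted log2 fold change, null minus wild type, was -3.17 (SE 0.57), and 46 of the 11887 genes tested had a lower one. Without wild-type library 3 it was -2.51.

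**Figure D1:**
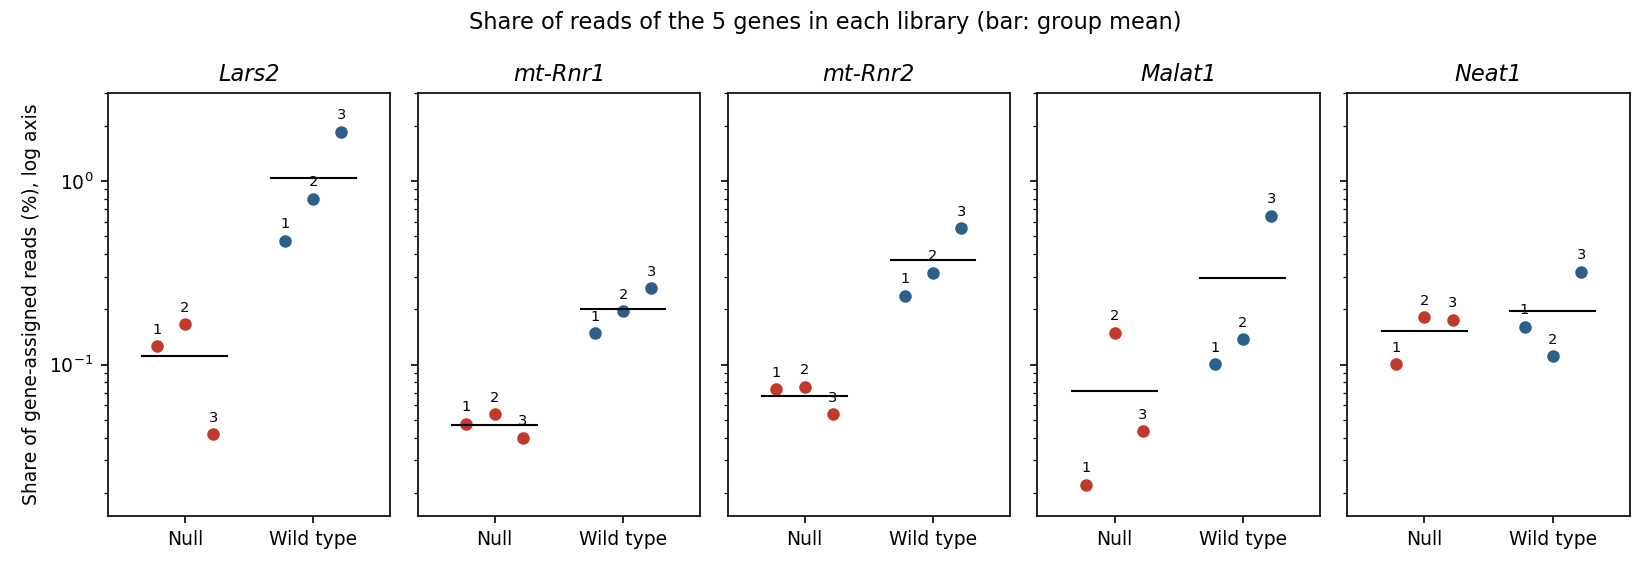
Share of gene-assigned reads (percent, log axis) of each of the 5 genes; each point is 1 library labelled with its number, Null left and wild type right, and the bar is the group mean. For Lars2, mt-Rnr1 and mt-Rnr2 all null points lie below all wild-type points; for Malat1 null library 2 (0.149%) lies among the wild-type points, and for Neat1 the groups overlap.

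The cytosolic counterpart of Lars2 lay within a narrow range in all 6 libraries. Lars, which encodes the leucyl-tRNA synthetase of the cytosol and was picked for this comparison after its values were seen, stood at 80.1, 81.4 and 92.9 CPM in null libraries 1 to 3 and at 81.2, 73.7 and 77.1 CPM in wild-type libraries 1 to 3. CPM are counts scaled to a common number of gene-assigned reads, after TMM scaling of the libraries. Lars2 had 16.4, 20.4 and 4.62 reads for each Lars read in the null libraries, and 58.4, 108 and 233 in the wild-type libraries. Of the 21 other genes that load amino acids inside mitochondria, none passed the test in either direction with edgeR (Benjamini-Hochberg adjusted p under 0.05), a test that 5.79% of all genes tested passed. Their median log2 fold change was -0.23, against 0.01 over all genes tested. At an unadjusted p under 0.05, which 2978 of all 11887 tested genes had, 1 was higher and 1 lower in null tumours. DESeq2 called 0, and limma-voom called 1, which was higher. Gars, the glycyl-tRNA synthetase of both compartments and the most abundant of them, stood at 145, 141 and 140 CPM in null libraries and 123.4, 122.9 and 71.6 CPM in wild-type libraries. Kars, the lysyl-tRNA synthetase of both compartments, stood at 97.6, 133 and 135 CPM in null libraries and 126, 104 and 57.9 CPM in wild-type libraries, and both genes were lowest in wild-type library 3. Of 18 cytosolic synthetases none passed with edgeR, DESeq2 or limma-voom, with 1 higher and 1 lower at an unadjusted p under 0.05 and a median log2 fold change of 0.03. The most abundant, Sars, the seryl-tRNA synthetase, stood at 214, 206 and 232 CPM in null libraries and 176, 178 and 140.5 CPM in wild-type libraries.

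Among the genes that flank Lars2 on its chromosome, none was called lower. Of 8 tested of 11 listed, where 2.26% of all tested genes were called higher, 1 passed the test, and it was higher in null tumours. This was Tmem158, a membrane protein gene known as a target of Ras signalling, with 12.0, 12.3 and 25.4 CPM in null libraries 1 to 3 against 4.68, 6.14 and 5.12 CPM in wild-type libraries 1 to 3 (edgeR log2 fold change 1.74, SE 0.44, adjusted p = 0.0395). It had 1 read in wild-type library 2, and the call was lost when null library 1 or 3, or any 1 of the wild-type libraries, was left out, and in limma-voom with mouse number as random effect (adjusted p = 0.119). The median over the 8 neighbours was 0.20.

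The profile of Lars2 over the 6 libraries was closely followed by a few sequences. Likeness was measured as the root mean square difference of log2 CPM, centred on each gene's mean over 6 libraries, among 3954 genes with at least 10 reads in each library, so a smaller value is more alike. The nearest were the identifiers ENSMUSG00000093077 and ENSMUSG00000083696, each at 0.104, which have no gene name in the annotation used, and Gm23935, annotated as a miRNA gene, at 0.155. The fourth was Gm15564, the gene with the shared window printed above, at 0.167. The median over all eligible genes was 1.81, and mt-Rnr2, the nearest of the other 4 genes described here, was at 0.655. Of the 9 genes nearer to Lars2 than mt-Rnr2, 6 were identifiers without a name in the annotation.

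Gm15564 had 26, 902 and 28 reads in null libraries 1 to 3 and 103, 19 and 5339 reads in wild-type libraries 1 to 3. In CPM this was 24.0, 28.6 and 5.51 against 80.4, 117 and 333, in the same order of libraries as Lars2. Its fitted log2 fold change was -3.28 (SE 0.62), close to the -3.17 of Lars2. AA474408, which shares the stretch too, had few reads, with 6, 101 and 17 in null libraries 1 to 3 and 1, 0 and 206 in wild-type libraries 1 to 3. Its groups overlapped, its highest level was in wild-type library 3, and its fitted log2 fold change was -1.10 (SE 0.66). The 0 reads in wild-type library 2 allow up to 18.6 CPM. Gm23935 stood at 119, 160 and 32.3 CPM in the null libraries and 370, 559 and 1488 CPM in the wild-type libraries. Of the 5072 identifiers without a name in the annotation, 5 took at least 0.1% of the reads of a library. Whether the shared letters bear on the reads assigned to Lars2 was not tested.

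**Figure D2:**
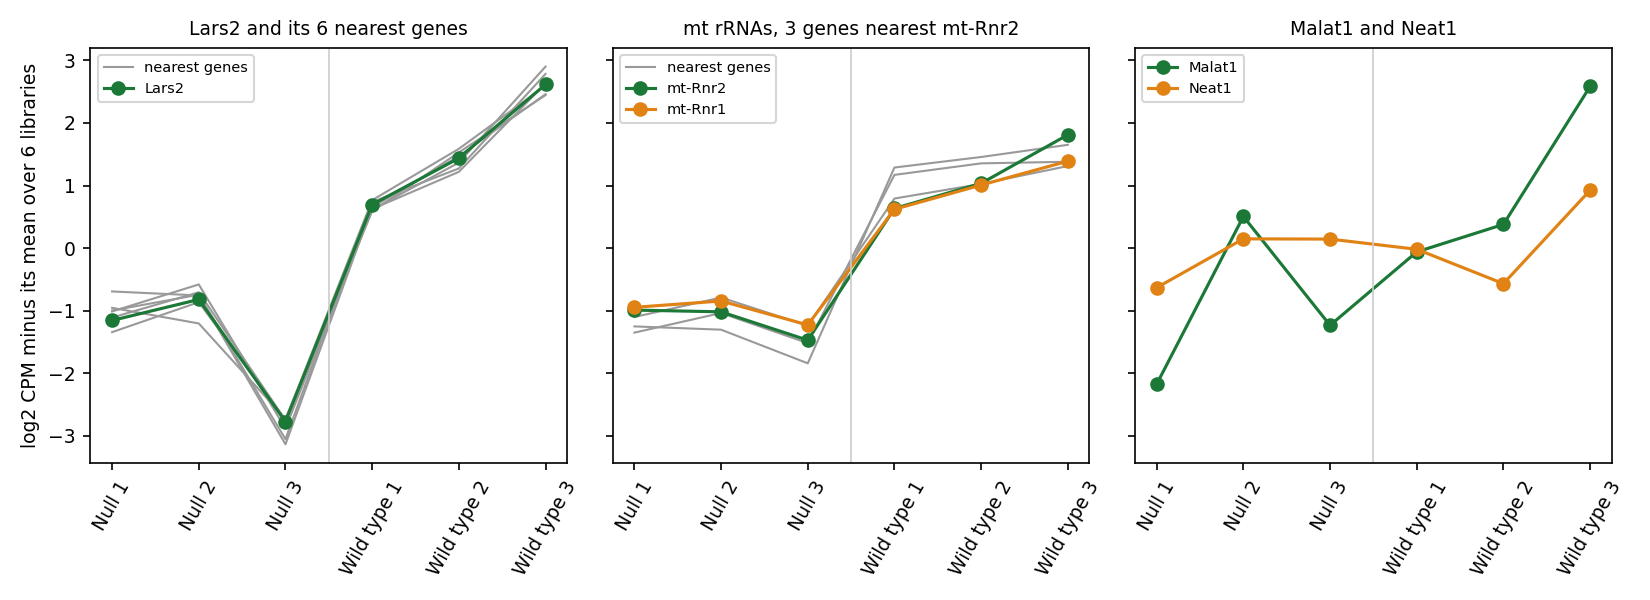
Log2 CPM minus each gene's mean over the 6 libraries, by library, Null 1 to 3 left of the vertical line and wild type 1 to 3 right of it; coloured lines are the named genes and grey lines the genes nearest to them. The 6 grey lines around Lars2 share its low point at null library 3 and its high point at wild-type library 3, and Malat1 spans a wider range than Neat1.

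Both mitochondrial rRNAs were lower in the null tumours. For mt-Rnr1, the small-subunit rRNA, the libraries held 542, 16897 and 2088 reads in null tumours 1 to 3 and 1895, 315 and 40406 reads in wild-type tumours 1 to 3. Its share of gene-assigned reads was 0.0476%, 0.0537% and 0.0400% in the null libraries and 0.148%, 0.195% and 0.260% in the wild-type libraries. The null values lay close together and the groups did not overlap. The mean share was 0.0471% ± 0.00687 in null tumours and 0.201% ± 0.0565 in wild-type tumours (SD, n = 3 each), and the fitted log2 fold change was -2.04 (SE 0.31).

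The large-subunit rRNA gene mt-Rnr2 had 837, 23863 and 2807 reads in null libraries 1 to 3 and 3044, 511 and 86122 reads in wild-type libraries 1 to 3. Its share was 0.0735%, 0.0758% and 0.0537% in the null libraries and 0.237%, 0.316% and 0.555% in the wild-type libraries. Again the groups did not overlap, and wild-type library 3 was highest. The mean share was 0.0677% ± 0.0121 in null tumours and 0.369% ± 0.165 in wild-type tumours (SD, n = 3 each), with a fitted log2 fold change of -2.39 (SE 0.36). For each mt-Rnr1 read there were 1.54, 1.41 and 1.34 mt-Rnr2 reads in null libraries 1 to 3 and 1.61, 1.62 and 2.13 in wild-type libraries 1 to 3. The profiles of the 2 rRNAs differed by 0.212 in the measure of likeness. The gene nearest to both was Phldb2, which encodes a protein bound to the cell cortex, at 0.103 from mt-Rnr1 and 0.256 from mt-Rnr2. Next came Cemip, a hyaluronan-degrading protein, at 0.283 and Amacr, an enzyme of branched fatty acid breakdown, at 0.318 for mt-Rnr1. For mt-Rnr2 they were Wnt10b, a Wnt ligand, at 0.343 and Klhl30 at 0.391.

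The mRNAs transcribed from the same mitochondrial chromosome overlapped between the groups in their summed share. Together they took 2.05%, 2.62% and 2.41% of gene-assigned reads in null libraries 1 to 3 and 2.97%, 3.30% and 1.91% in wild-type libraries 1 to 3. For 100 mitochondrial mRNA reads there were 5.90, 4.93 and 3.88 mitochondrial rRNA reads in the null libraries and 12.96, 15.5 and 42.8 in the wild-type libraries. Of the 12 mRNAs tested of 13, none passed with edgeR, DESeq2 or limma-voom. In edgeR 1 was lower at an unadjusted p under 0.05, and the median log2 fold change was -0.28. Of all 11887 tested genes, 5.79% passed with edgeR and 2978 had an unadjusted p under 0.05. No read was assigned to mt-Nd4l in any library. The most abundant were mt-Co3 and mt-Co1, subunits of cytochrome c oxidase. Levels of mt-Co3 were 5416, 5888 and 6598 CPM in null libraries 1 to 3 and 5814, 6653 and 3636 CPM in wild-type libraries 1 to 3. For mt-Co1 they were 5558, 5657 and 6093 CPM in the null libraries and 5248, 6610.5 and 3393 CPM in the wild-type libraries. Of the mRNAs, 1 had groups that did not overlap, mt-Nd2, a subunit of complex I named here after its values were seen. It stood at 648, 894 and 530 CPM in null libraries 1 to 3 and 1216, 1388 and 898 CPM in wild-type libraries 1 to 3, so null library 2 came within a few CPM of wild-type library 3.

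**Figure D3:**
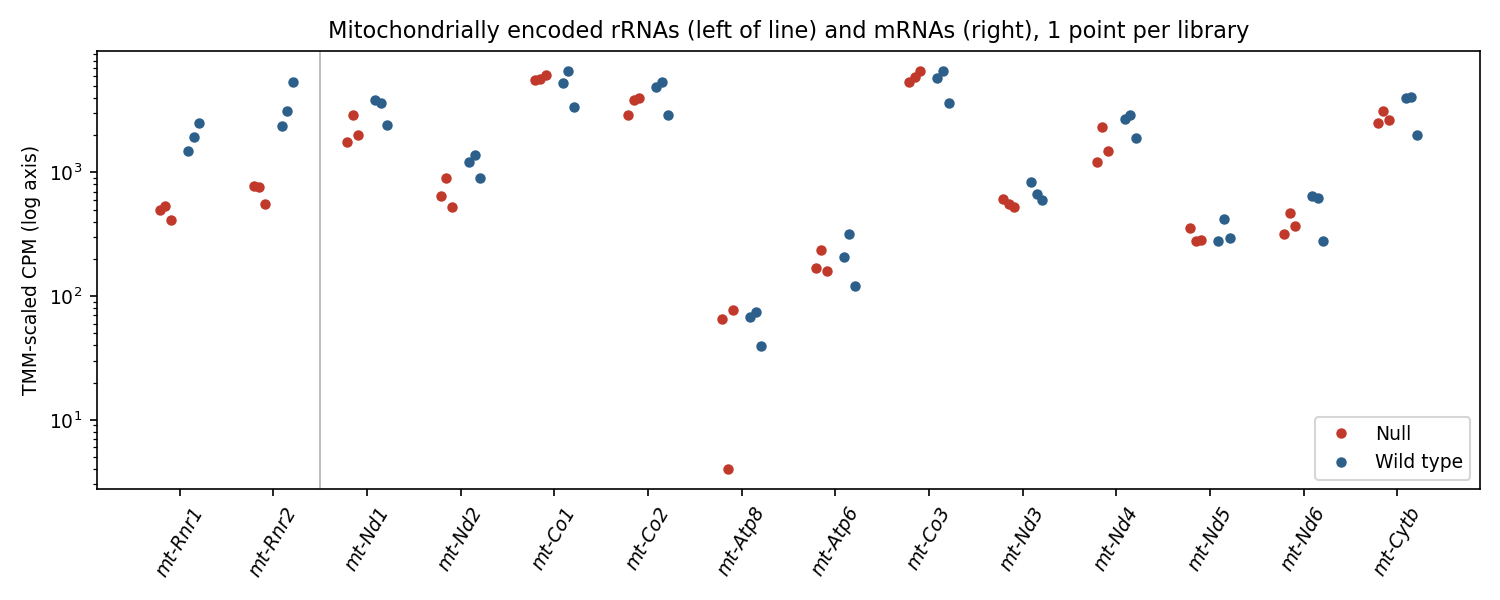
TMM-scaled CPM (log axis) of the mitochondrially encoded rRNAs and mRNAs, 1 point per library, Null in red left of wild type in blue for each gene. Null points of mt-Rnr1 (411 to 536 CPM) and mt-Rnr2 (552 to 771 CPM) lie apart from the wild-type points (1480 to 2522 and 2377 to 5375 CPM), while the groups overlap for all mRNAs shown other than mt-Nd2.

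The other parts of the mitochondrial translation system were tested as lists. Of the mitochondrially encoded tRNAs, 6 of 22 had enough reads, and none passed with edgeR, DESeq2 or limma-voom, nor at an unadjusted p under 0.05, with a median log2 fold change of 0.21. The most abundant were mt-Ts1, a serine tRNA, with 58.0, 171 and 79.1 CPM in null libraries and 83.5, 43.0 and 87.1 CPM in wild-type libraries, and mt-Te, the glutamate tRNA, with 33.2, 86.1 and 33.3 CPM in null libraries and 55.4, 43.0 and 28.2 CPM in wild-type libraries. Of 41 genes for mitochondrial transcription and rRNA maturation none passed with edgeR or DESeq2, limma-voom called 3 that were higher, and the median was -0.02. At an unadjusted p under 0.05, 4 were higher and 6 lower. For comparison, 5.79% of all 11887 tested genes passed with edgeR, and 2978 had an unadjusted p under 0.05. Its most abundant members were Fastk, a mitochondrial RNA-binding kinase-like protein, and Hsd17b10, a subunit of mitochondrial RNase P. Hsd17b10 stood at 169, 139 and 163 CPM in null libraries 1 to 3 and at 60.1, 129 and 17.2 CPM in wild-type libraries 1 to 3. Its groups did not overlap (edgeR log2 fold change 1.63, SE 0.52, adjusted p = 0.0793). It passed, as higher, without wild-type library 2 and with mouse pairs summed. It also passed in limma-voom with mouse number as random effect (adjusted p = 0.00626). With any other 1 library left out it did not pass. Fastk stood at 86.6, 120 and 116 CPM in the null libraries and 112, 122.9 and 139 CPM in the wild-type libraries.

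The genes for the protein subunits of the mitochondrial ribosome had a positive median, while its rRNAs were lower. Of 76 tested, 1 was higher in null tumours and none lower with edgeR, where 2.26% of all tested genes were higher. At an unadjusted p under 0.05, 23 were higher and 0 lower, where 2978 of all 11887 tested genes had such a p in either direction. The median log2 fold change was 0.45, against 0.01 over all genes. Of the 76, 27 (35.5%) were higher in every null library than in every wild-type library, a pattern that 16.2% of all tested genes showed. Summed over the list, levels were 4999, 4018 and 4421 CPM in null libraries 1 to 3 and 3770, 3373 and 2868 CPM in wild-type libraries 1 to 3. The groups did not overlap (two-sided exact permutation test of 3 against 3, p = 0.1, the smallest this design allows). The muscle, fibroblast, T and NK cell and other abundant noncoding lists described below had the same p. The test took libraries that share a mouse number as separate, so nothing is read from it. The gene that passed was Mrps34, a small-subunit protein, with 13.8, 17.5 and 27.2 CPM in the null libraries and 5.47, 18.4 and 3.99 CPM in the wild-type libraries (edgeR log2 fold change 1.96, SE 0.49, adjusted p = 0.0356). Leaving out wild-type library 3, or any 1 null library, ended its call and left 0 in the list, while without wild-type library 1 there were 7, all higher. DESeq2 called 0 genes of this list and limma-voom 14, all higher.

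Markers of skeletal muscle, a tissue rich in mitochondria, were lower in the null tumours as well. All 9 tested of 10 muscle markers fell in edgeR, where 3.52% of all tested genes fell, with a median log2 fold change of -3.61. DESeq2 called 8 of the list and limma-voom 7, all lower. Ttn, Myh4, Myh1 and Actn3 reached the 3.07 CPM that the expression filter asks of 3 libraries in 1 null library and 3 wild-type libraries. They thus entered the test through the wild-type group, and their calls support nothing. The counts and the median above include them. Acta1, Des and Mylpf reached that level in 3 null and 3 wild-type libraries, and Tnnt3 and Ckm in 2 null and 3 wild-type libraries. The summed level of the list was 65.4, 107 and 38.4 CPM in null libraries 1 to 3 and 1402, 707 and 531 CPM in wild-type libraries 1 to 3. The largest changes were those of Ttn, Tnnt3 and Myh4, proteins of the contractile fibres, of which Ttn and Myh4 entered through the wild-type group. Ttn, titin, stood at 0.921, 7.35 and 2.75 CPM in the null libraries and 179.6, 98.3 and 73.8 CPM in the wild-type libraries (edgeR log2 fold change -4.58, SE 0.49). Of the 9 calls, those of Actn3 and Mylpf were lost when null library 1 or 3 or wild-type library 1 or 2 was left out. In limma-voom with mouse number as random effect 4 calls were lost, with adjusted p = 0.0580 for Myh4, 0.0593 for Myh1, 0.193 for Actn3 and 0.257 for Mylpf. Tnnc2 was at 0 in null libraries 1 and 3 and in wild-type libraries 1 and 2, and Myh1 and Actn3 were at 0 in null library 1. The order within the wild-type group differed: muscle markers were highest in wild-type library 1, and Lars2 and both rRNAs in wild-type library 3. The part of muscle RNA in the levels of Lars2 and the mitochondrial rRNAs was not tested.

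Malat1 had lower levels in most null libraries, with wide spread. It had 252, 46981 and 2266 reads in null libraries 1 to 3 and 1288, 222 and 100746 reads in wild-type libraries 1 to 3. Its share was 0.0221%, 0.149% and 0.0434% of gene-assigned reads in the null libraries and 0.1003%, 0.137% and 0.649% in the wild-type libraries. The groups overlapped, because null library 2 exceeded wild-type libraries 1 and 2. The mean share was 0.0716% ± 0.0681 in null tumours and 0.295% ± 0.307 in wild-type tumours (SD, n = 3 each), and the fitted log2 fold change of -2.0 had an SE of 0.75. It was -3.12 without null library 2 and -0.72 without wild-type library 3, so the size rests on single libraries. The genes most like Malat1 were Mdm4-ps, a pseudogene of Mdm4, at 0.589, and Sltm at 0.620 and Safb2 at 0.692, related genes for RNA-binding proteins of the nucleus. The median over all genes was 1.52.

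Neat1 differed less than its spread. It had 1142, 56989 and 9158 reads in null libraries 1 to 3 and 2061, 179 and 49609 reads in wild-type libraries 1 to 3. Its share was 0.1003%, 0.181% and 0.175% in the null libraries and 0.161%, 0.111% and 0.319% in the wild-type libraries. The groups overlapped, with null library 1 lowest and wild-type library 3 highest. The mean share was 0.152% ± 0.0450 in null tumours and 0.197% ± 0.109 in wild-type tumours (SD, n = 3 each), and the fitted log2 fold change was -0.32 (SE 0.39). Without wild-type library 3 it was 0.16, higher in null tumours. The nearest genes were Tap1, a peptide transporter of antigen presentation, at 0.115, Mroh1 at 0.140 and Gga3, a sorting adaptor of the Golgi, at 0.150, against a median of 0.639 over all genes. For each Neat1 read there were 0.221, 0.824 and 0.247 Malat1 reads in null libraries 1 to 3 and 0.625, 1.24 and 2.03 in wild-type libraries 1 to 3.

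Proteins of the nuclear bodies in which Malat1 and Neat1 reside were tested as lists. Over all 11887 tested genes, 5.79% passed with edgeR and 2978 had an unadjusted p under 0.05. Of 22 paraspeckle proteins tested none passed with edgeR, with 1 higher and 4 lower at an unadjusted p under 0.05 and a median log2 fold change of 0.05. DESeq2 called 2 and limma-voom 1, all lower. Hnrnpk, an RNA-binding protein, stood at 590, 493 and 429 CPM in null libraries 1 to 3 and 390, 491 and 538 CPM in wild-type libraries 1 to 3. Ewsr1, another RNA-binding protein, stood at 185, 291 and 225 CPM in the null libraries and 359, 301 and 862 CPM in the wild-type libraries. Of 27 nuclear speckle proteins none passed with edgeR, DESeq2 or limma-voom, with 2 higher and 3 lower at an unadjusted p under 0.05, and the median was -0.17. The splicing factors Sf3b1 and Srsf11, the most abundant, both had their highest level in wild-type library 3. Sf3b1 stood at 521, 499 and 399 CPM in null libraries and 528, 467 and 877 CPM in wild-type libraries, and Srsf11 at 605, 436 and 374 CPM in null libraries and 511, 424 and 934 CPM in wild-type libraries.

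Transcripts known for retained introns or for staying in the nucleus moved in both directions. Of 19 tested, a list that shares genes with the nuclear speckle list, 1 rose and 2 fell, where 2.26% of all tested genes rose and 3.52% fell, with a median log2 fold change of -0.42. Mat2a, the methionine adenosyltransferase with a regulated retained intron, stood at 357, 204 and 217 CPM in null libraries 1 to 3 and 134, 135 and 82.8 CPM in wild-type libraries 1 to 3 (edgeR log2 fold change 1.19, SE 0.31, adjusted p = 0.0425). Nktr, a cyclophilin-related protein, stood at 102, 150 and 117 CPM in the null libraries and 242, 190 and 334 CPM in the wild-type libraries (edgeR log2 fold change -1.08, SE 0.28, adjusted p = 0.0395). Slc7a2, whose nuclear-retained transcript was described in paraspeckles, had 0, 22 and 4 reads in null libraries and 4, 2 and 74 reads in wild-type libraries. It reached the 3.07 CPM that the expression filter asks of 3 libraries in the wild-type libraries alone, so its call, 1 of the 2 counted as lower, supports nothing. Each of these calls was lost without null library 1. Mat2a lost its call also without null library 3 or any 1 wild-type library, Nktr also without null library 3 or wild-type library 1 or 3, and Slc7a2 also without wild-type library 2; Slc7a2 had enough reads for the test in 3 of the 6 fits that leave out 1 library.

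Malat1 and Neat1, neither of which passed the test, lie near each other on chromosome 19. Of 12 neighbours tested of 14, 1 fell and none rose, where 3.52% of all tested genes fell and 2.26% rose. At an unadjusted p under 0.05, 4 were lower, where 2978 of all 11887 tested genes had such a p in either direction. The median log2 fold change was -0.54. DESeq2 called 2 and limma-voom 3, all lower. In 4 of the 12 (33.3%) every null library was below every wild-type library, against 14.3% of all tested genes. Their summed level was 684, 1116 and 1088 CPM in null libraries 1 to 3 and 1524, 1364 and 1738 CPM in wild-type libraries 1 to 3 (two-sided exact permutation test of 3 against 3, p = 0.1, the smallest possible). As for the mitochondrial ribosomal proteins, this test took libraries as separate, and nothing is read from it. Pcnx3, a membrane protein gene of the pecanex family, was the one that fell. It stood at 52.5, 105 and 94.0 CPM in the null libraries and 204, 215 and 191 CPM in the wild-type libraries (edgeR log2 fold change -1.24, SE 0.28, adjusted p = 0.0250). Leaving out null library 1 or 3, or wild-type library 2, ended its call.

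Other long noncoding RNAs were called in both directions. Of 18 tested of 49 listed, 1 rose and 2 fell, where 2.26% of all tested genes rose and 3.52% fell, and the median log2 fold change was -0.14. Meg3 and H19, maternally expressed imprinted RNAs, were the ones that fell. Meg3 stood at 2.76, 6.59 and 2.95 CPM in null libraries 1 to 3 and 21.9, 18.4 and 44.7 CPM in wild-type libraries 1 to 3 (edgeR log2 fold change -2.77, SE 0.43). Meg3 reached the 3.07 CPM that the expression filter asks of 3 libraries in 1 null library and 3 wild-type libraries. It thus entered the test through the wild-type group, and its call supports nothing. H19 stood at 4.61, 12.96 and 18.3 CPM in the null libraries and 93.7, 49.1 and 46.0 CPM in the wild-type libraries (edgeR log2 fold change -2.29, SE 0.40, adjusted p = 0.00658). The call of H19 held when each library was left out in turn, and that of Meg3 was lost without wild-type library 3 (adjusted p = 0.0581). Both are also transcribed in skeletal muscle, whose markers moved the same way, and the part of muscle RNA was not tested. Snhg12, a host gene of small nucleolar RNAs, rose, with 51.6, 23.5 and 36.8 CPM in null libraries against 14.1, 12.3 and 10.4 CPM in wild-type libraries (edgeR log2 fold change 1.61, SE 0.37, adjusted p = 0.0282). Leaving out null library 1 or 3, or wild-type library 3, ended that call. Leaving out Malat1 and Neat1, genes annotated as lincRNA took 0.114% to 0.132% of gene-assigned reads in null libraries and 0.122% to 0.169% in wild-type libraries.

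A list of other abundant noncoding RNAs was mostly not measured: 4 of 22 listed were tested. The list includes Gm15564, annotated as antisense, which shares the stretch of Lars2 and was among the genes nearest to it. Of the 4 tested, 3 fell, where 3.52% of all tested genes fell, and the median log2 fold change was -2.72. Besides Gm15564 (edgeR adjusted p = 0.0127), these were Rmrp and Rpph1, the RNA components of RNase MRP and RNase P, which cut ribosomal RNA and tRNA precursors, RNase P also trimming the 3′ end of Malat1. Rmrp had 0, 34 and 2 reads in null libraries 1 to 3 and 7, 3 and 69 reads in wild-type libraries 1 to 3. It reached the 3.07 CPM that the expression filter asks of 3 libraries in the wild-type libraries alone, so its direction was set by the filter and its call supports nothing. Rpph1 had 7, 124 and 1 reads in the null libraries and 15, 5 and 316 reads in the wild-type libraries (edgeR log2 fold change -2.59, SE 0.68, adjusted p = 0.0443). These rest on few reads: the call of Rmrp was ended by leaving out null library 1 or wild-type library 1 or 2, and that of Rpph1 without any 1 null library or without wild-type library 2 or 3. Leaving out null library 1 or wild-type library 3 ended the call of Gm15564. In limma-voom with mouse number as random effect none of the 3 passed, with adjusted p = 0.0600 for Gm15564, 0.0625 for Rmrp and 0.183 for Rpph1.

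**Figure D4:**
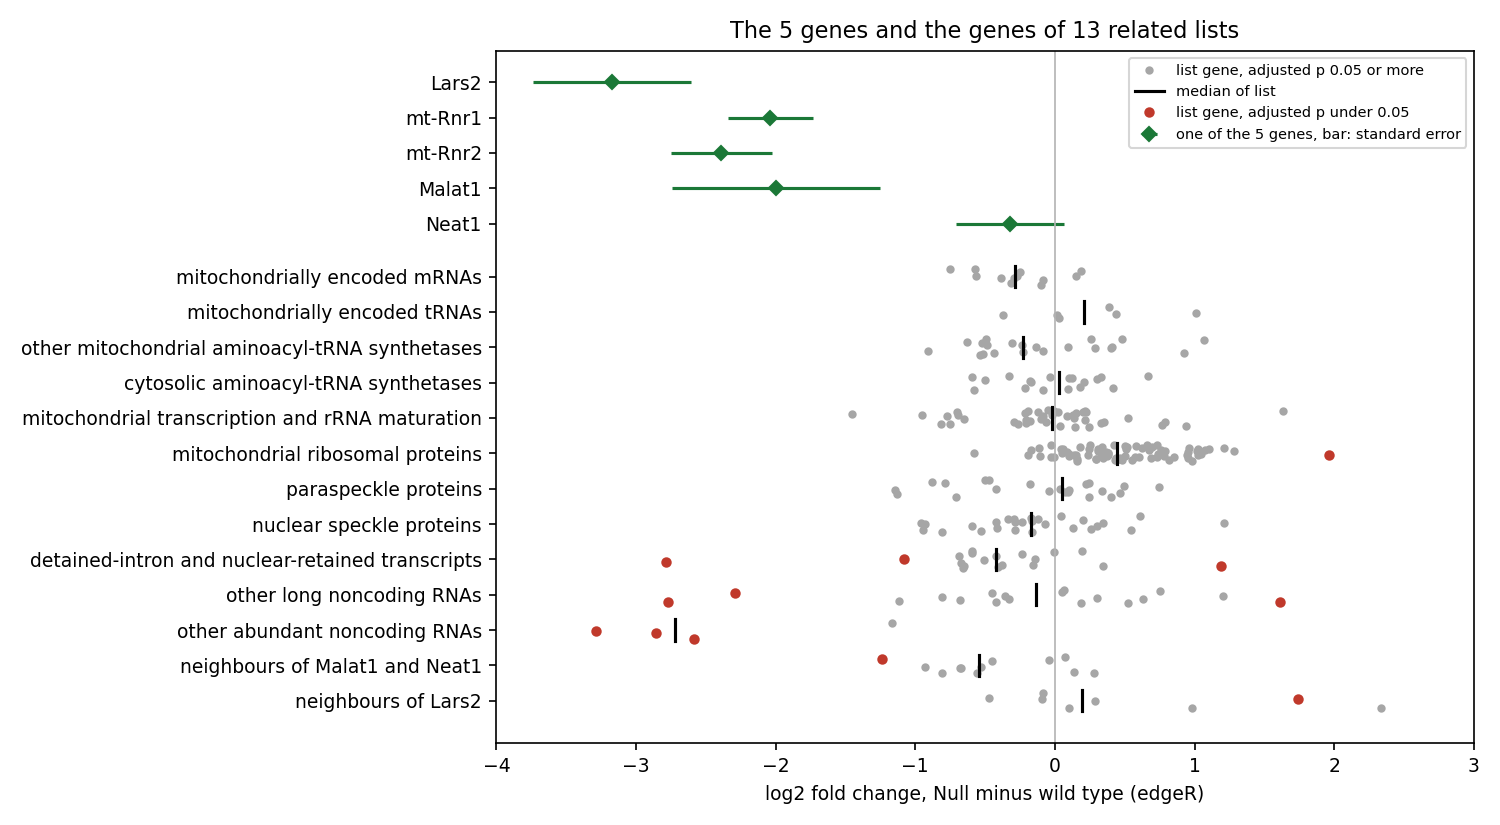
EdgeR log2 fold changes, null minus wild type, of the 5 genes (diamonds with standard error) above the genes of 13 related lists (points, red where the adjusted p is under 0.05; black bar, list median). Lars2, mt-Rnr1 and mt-Rnr2 lie left of nearly all genes of the mitochondrial lists, whose medians run from -0.28 to 0.45.

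Set side by side, the 5 genes took 0.369%, 0.626% and 0.354% of gene-assigned reads in null libraries 1 to 3 and 1.12%, 1.56% and 3.64% in wild-type libraries 1 to 3. With edgeR 3 of the 5 had an adjusted p under 0.05, where 5.79% of all 11887 tested genes did in either direction and 3.52% did as lower and 2.26% as higher in null tumours. The same 3 had groups that did not overlap, as 14.3% of all tested genes had in this direction. Since the genes were chosen by this contrast, nothing is read from these counts. Values just inside and just outside that line were those of mt-Rnr1, with a highest null share of 0.0537% and a lowest wild-type share of 0.148%, and of Malat1, with 0.149% and 0.1003%.

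Per length, as CPM per kilobase of the main transcript, Lars2 stood at 291 ± 163 in null tumours and 2622 ± 1770 in wild-type tumours (SD, n = 3 each). For mt-Rnr2 the level was 438 ± 77.3 in null tumours and 2295 ± 985 in wild-type tumours. For mt-Rnr1 it was 505 ± 67.2 in null tumours and 2072 ± 547 in wild-type tumours. In the wild-type tumours these 3 means differed by less than the SD of Lars2. In the null tumours the mean of Lars2 lay below that of mt-Rnr2 by less than its own SD and below that of mt-Rnr1 by more. These SDs are between libraries, and the genes were not compared per length within each library. Counts cover whole genes, and the exons of Lars2 span 11089 bases against 3894 in its main transcript, so the order depends on the length used. Malat1 followed at 103 ± 96.3 in null tumours and 413 ± 423 in wild-type tumours, and Neat1 at 74.8 ± 20.9 in null tumours and 93.2 ± 49.9 in wild-type tumours. The ranges of mean ± SD of Malat1 and Neat1 overlapped in both groups.

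**Figure D5:**
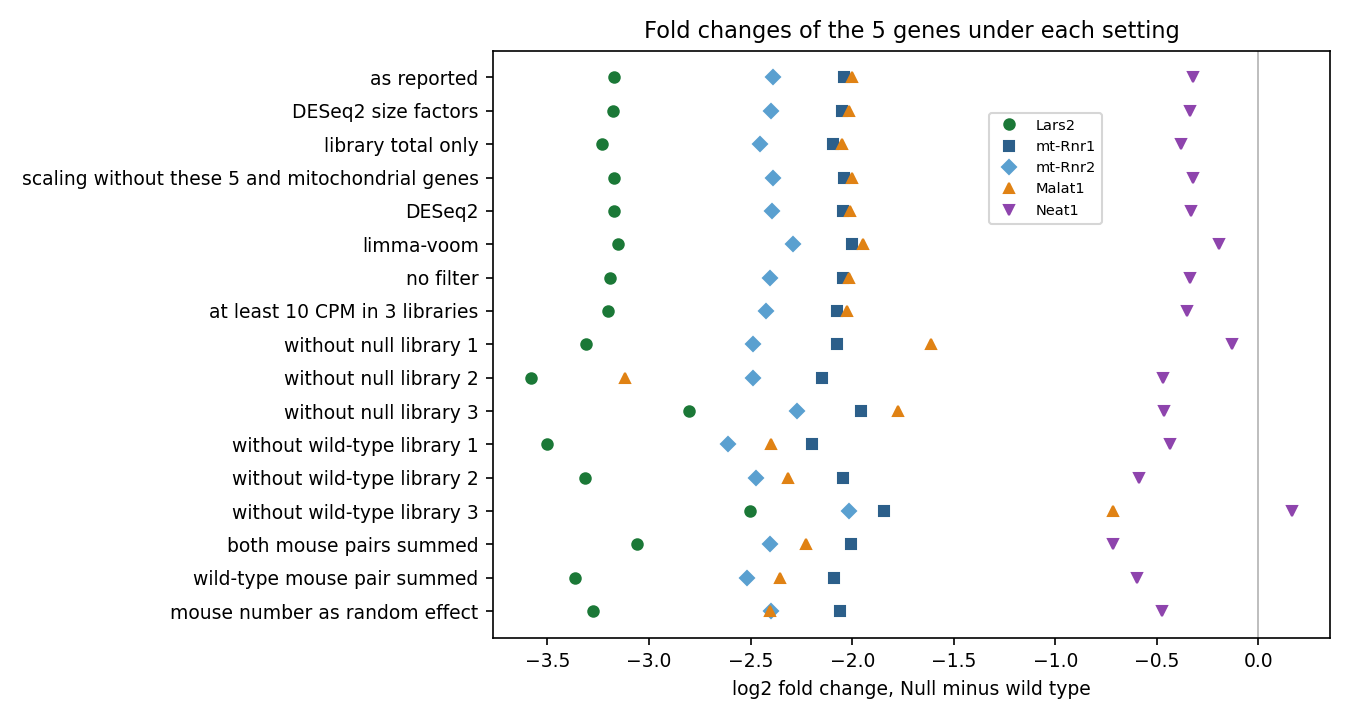
Fold change (log2, null minus wild type) of the 5 genes as reported and under 16 other settings. Lars2, mt-Rnr1, mt-Rnr2 and Malat1 are left of 0 in every row; Malat1 runs from -3.12 without null library 2 to -0.72 without wild-type library 3, where Neat1 is at 0.16.

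Single libraries moved these counts. Without null library 1 the number of the 5 genes with an adjusted p under 0.05 was 2, since Lars2 no longer passed, and without null library 2 it was 4, since Malat1 then passed.

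Other cell types were covered by marker lists, and over all tested genes 3.52% fell and 2.26% rose. An unadjusted p under 0.05 was reached by 2978 of the 11887 tested genes. Of 3 adipocyte markers tested of 5, 2 fell, Cfd, which reached the filter's level in wild-type libraries alone, and Lpl (the call of Lpl was lost without null library 1 or 3 or wild-type library 1), and the summed level was 39.4 to 92.1 CPM in null libraries and 90.7 to 189 CPM in wild-type libraries, with Plin1 at 0 in all null libraries and in wild-type libraries 2 and 3. Of 5 fibroblast markers 2 rose, the matrix proteoglycans Dcn and Lum, and 1 fell, the collagen gene Col1a2 (the calls of Dcn and Col1a2 were lost without null library 1 or 3, and that of Dcn also without wild-type library 2), with sums of 4956 to 6193 CPM in null libraries and 3548 to 4903 CPM in wild-type libraries. Of 3 T and NK cell markers tested of 6, 1 rose, Prf1. It reached the filter's level in 3 null libraries and 1 wild-type library, so its call supports nothing. Summed levels of that list were 56.9 to 86.1 CPM in null libraries and 22.5 to 43.0 CPM in wild-type libraries. Of 7 keratinocyte markers tested of 9, 1 fell, Krt14 (adjusted p = 0.0502 in limma-voom with mouse number as random effect), with sums of 46.8 to 94.0 CPM in null libraries and 72.1 to 129 CPM in wild-type libraries. Endothelial (4), macrophage (5) and erythroid (2) markers held none that passed with edgeR, DESeq2 or limma-voom or at an unadjusted p under 0.05. The part of these cell types in the levels of the 5 genes was not tested.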

How the data were processed

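RNA sequencing of 6 tumour libraries was deposited as whole-number read counts per Ensembl gene, 1 table for each library, which the authors left unnormalized. Per the submitters' processing notes, TopHat2, Cuffdiff and DESeq2 and the build mm9 were used, with no version or role. The counting program, its annotation and its use of strand stay unnamed (not given in the sources used here), so reads of overlapping antisense genes, and of genes with near-identical stretches, cannot be told apart. The 5 closing lines for unassigned reads stayed out of library sizes and tests. Those for low quality and for unaligned reads were 0.

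Symbols came from GENCODE M21 (GRCm38), which matched 32919 of 37991 identifiers (86.6%). Since that build is not mm9, coordinates are given only for printed sequences, which were read from its transcripts and compared with Biopython 1.88.

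Over 11887 genes that passed the default expression filter, edgeR 4.0.16 (R 4.3.3) compared the groups by its quasi-likelihood test, fitted robustly on TMM-scaled libraries, with Benjamini-Hochberg adjustment at 0.05. The test was tried on simulated data. Alternatives were DESeq2 1.42.0, limma-voom (limma 3.58.1), other scalings and filters, each library left out, and libraries of a shared mouse number summed or given a random effect. Shares have exact (Clopper-Pearson) 95% intervals from scipy 1.17.1. A count of 0 allows up to 3 reads, or 0.0953 to 2.64 CPM in the null libraries and 0.193 to 18.6 CPM in the wild-type libraries.

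The 5 genes and the gene lists were chosen with earlier results of these data known. From each list the text names up to 3 genes per direction that passed the test, by size of change, or, where none passed, the 2 of highest level, except for 1 gene of the cytosolic synthetases. Also named are the 3 nearest genes to each of the 5, and noncoding genes with at least 0.1% of the reads of a library.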

Additional observations from a re-analysis of the deposited data

How the results depend on the processing

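Over all genes, 688 differed (269 higher and 419 lower in null tumours), and 2978 had an unadjusted p under 0.05. With limma-voom the counts were 1641, 832 higher and 809 lower, of which 674 were shared with the 688 in the same direction. With the wild-type pair of a shared mouse number summed, 165 genes were higher and 328 lower, with both pairs summed 184 and 300, and when mouse number entered as random effect 533 and 428. Summing both pairs ended the calls of Mrps34, Mat2a, Slc7a2, Nktr, Rmrp, Pcnx3, Tmem158, Actn3, Col1a2 and Dcn, and summing the wild-type pair those of Mat2a, Slc7a2, Rmrp, Rpph1, Pcnx3, Tmem158, Mylpf and Dcn. Leaving out 1 library at a time gave 179 (without null library 1) to 855 genes (without wild-type library 1), 59 to 421 higher and 120 to 434 lower; 225 were left without null library 3 and 281 without wild-type library 3. Neat1 reversed, its log2 fold change becoming 0.16, when wild-type library 3 was left out. Leaving out 1 library moved those of Lars2 between -3.58 and -2.51, of mt-Rnr1 between -2.20 and -1.84, of mt-Rnr2 between -2.61 and -2.01, of Malat1 between -3.12 and -0.72 and of Neat1 between -0.59 and 0.16. Lars2 did not pass the test without null library 1 or with no filter on low counts. The causes were not tested. Of the calls counted within the lists, 344 counts under other settings were within 1.5 times the reported one, 24 were higher and 48 lower. Shares over all listed reads, or without the mitochondrial genes, kept direction for the 5 genes. No paired analysis was possible because the labels give no replicate number shared by the 2 groups. Depth, at 161711 reads in wild-type library 2, limits what can be said of RNAs with few reads, such as Rmrp and Rpph1.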

Other observations

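Genes by annotated class add to the picture of where the reads of the 2 groups went. Protein-coding genes took 98.0% to 98.4% of gene-assigned reads in null libraries and 94.7% to 97.5% in wild-type libraries. Identifiers without a name in the annotation took 0.606% to 0.749% in null libraries and 1.06% to 2.47% in wild-type libraries. Genes annotated as miRNA, among them Gm23935, took 0.00729% to 0.0187% in null libraries and 0.0405% to 0.157% in wild-type libraries. Gm23935 alone took 0.00314% to 0.0161% in null libraries and 0.0369% to 0.154% in wild-type libraries, most of that class in each wild-type library. The class without Gm23935 was not compared. Genes annotated as snoRNA, small nucleolar RNAs that guide the modification of ribosomal RNA, took 0.00492% to 0.00843% in null libraries and 0.00247% to 0.00475% in wild-type libraries. The lowest null share, in null library 3, lay just above the highest wild-type share, in wild-type library 1, and counting error was not measured here. For these classes the groups did not overlap, while they overlapped for antisense genes (0.0878% to 0.101% in null libraries and 0.0901% to 0.148% in wild-type libraries) and for processed transcripts (0.171% to 0.208% in null libraries and 0.147% to 0.208% in wild-type libraries). Genes annotated as snRNA took at most 0.000966% in null libraries and 0.00108% in wild-type libraries, and genes annotated as rRNA at most 0.000264% in null libraries and 0.000180% in wild-type libraries, again with overlap. None of these classes was tested.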
